A study of Mus musculus with 6 samples.

Results

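The 53 genes described here are a hand-made list of macrophage and other myeloid genes, read in cultures of muscle-derived stem cells (MDSC) and in embryonic stem cells (ESC). The list was chosen with earlier results of these data known, so its shares beside those of all features are descriptions. The list names genes by symbol, and a probe counted as a member's probe when its RefSeq accession matched that symbol. Of the 53 genes, 52 had a probe (68 probes in all) and 46 could be tested, out of 25057 tested among 37153 genes and features on the array. To be tested, a gene had to be well above background on each array of some group. Clec7a, a receptor for fungal glucans, had no matched probe.

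The study took 2 arrays for each of 3 kinds of male mouse cell, to describe the potency of MDSC by gene expression. MDSC were the fraction of digested hindlimb muscle that attached last to matrigel in serial replating, from mice 5 weeks old, expanded in medium with serum and chick embryo extract and taken at passage 1. WT 1 and WT 2 were separate isolations from wild-type mice, and Mstn-null 1 and Mstn-null 2 separate isolations from animals that the labels call Mstn null. Mstn encodes myostatin, which muscle secretes and which holds back its own growth. ESC 1 and ESC 2 were passages 12 and 15 of W4, an established ESC line, called feeder free in the design text, while the growth protocol tells of feeder fibroblasts removed by a brief plating. No group was treated, and the strain and the number of mice behind an isolation are not given in the sources used here.

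Macrophages live in skeletal muscle and clear debris after injury. Their identity rests on the transcription factor PU.1, encoded by Spi1, which binds purine-rich sites in the promoters of many myeloid genes, and on signalling through Csf1r, the receptor for the growth factors CSF1 and IL-34. Macrophages sense their surroundings with receptors that signal through the adaptors Tyrobp and Fcer1g, and inhibitory receptors of the Lilrb and Pir families oppose that signal. In a culture measured in bulk, a low level from fewer cells of a type and a low level from less RNA per cell cannot be told apart.

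The array values are Agilent scanner signals, given as log2 levels relative to the 75th percentile of each array, so a level of 0 is the signal of a probe at that percentile. Levels of different genes come from different probes and are not compared with each other. Of 59305 non-control spots per array, 53.3% to 64.6% were well above background and none was saturated, and the small number of arrays limits the precision of every value. Both WT arrays lay on 1 slide and the other 4 arrays on another, so for WT the slide and the genotype cannot be told apart. The Mstn probe read -4.90 and -6.71 on the WT arrays, where it was not well above background, and -3.06 and -2.47 on the Mstn-null arrays, where it was. Which part of the gene was deleted is not given in the sources used here, so this probe does not check the genotype labels, and the genotype names below are those of the labels. Of 6 pluripotency genes, 5 were lower in MDSC than in ESC and 1 was higher. Zfp42 read 5.79 and 6.03 on ESC and was not well above background on any MDSC array. Nanog was the gene that was higher in MDSC, by 0.56 ± 0.13 SE (limma adjusted p = 0.0185), with -0.77 and -0.66 on ESC. Its probe read -0.20 to -0.07 on MDSC and so hardly moved over the 6 arrays. Whether that probe tracks Nanog RNA was not tested. Of the myogenic markers, Pax7 and Myf5 did not qualify for testing, while Chrna1, a subunit of the muscle acetylcholine receptor, was 5.35 higher in MDSC than in ESC. Fibroblast genes were high in all 4 MDSC cultures, with Col1a1 at 7.68 to 8.17.

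Promoter sequences were at hand for 38 members (RefSeq, GRCm38.p6), each as 250 bases before to 50 bases after a start site, with 46 such windows in all. The letters AGGAAGT, the core of a PU.1-type ETS site, occurred on either strand in 8 of the 38 members, which is 21.05%, beside 10.68% of 27025 genes in the same table. The longer GAGGAAGT, which contains AGGAAGT, occurred in 3 members (Cd53, Pirb and Vav1), 7.895% beside 3.689% of all genes. GGAA alone was in 100% of the members and in 96.48% of all genes, and TATAAA in 10.53% and 15.67%. The 8 members with AGGAAGT were Cd53, Fcgr1, Lyz2, Mrc1, Pirb, Ptprc, Vav1 and Was. These matches describe letters in the windows and do not show a site in use. The 150 bases before the start are printed for the 6 members whose match lies there, to show the sequence beside the levels that follow, 5′ to 3′ on the strand of the gene. Capitals mark AGGAAGT or its reverse complement. They lie at chr3:96293970-96294119 (minus strand) for Fcgr1, chr10:117282273-117282422 (minus) for Lyz2, chr7:3720383-3720532 (minus) for Pirb, chr1:138175306-138175455 (minus) for Ptprc, chr17:57278950-57279099 (plus) for Vav1 and chrX:8090492-8090641 (minus) for Was.
Fcgr1: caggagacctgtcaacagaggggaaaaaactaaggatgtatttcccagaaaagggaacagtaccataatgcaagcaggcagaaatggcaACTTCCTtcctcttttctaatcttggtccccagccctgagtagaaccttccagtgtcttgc
Lyz2: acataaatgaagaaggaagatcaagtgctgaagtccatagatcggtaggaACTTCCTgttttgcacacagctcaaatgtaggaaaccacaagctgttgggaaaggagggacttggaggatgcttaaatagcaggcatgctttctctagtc
Pirb: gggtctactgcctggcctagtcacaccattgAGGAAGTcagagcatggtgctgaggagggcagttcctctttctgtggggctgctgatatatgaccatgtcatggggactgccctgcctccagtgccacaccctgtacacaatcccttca
Ptprc: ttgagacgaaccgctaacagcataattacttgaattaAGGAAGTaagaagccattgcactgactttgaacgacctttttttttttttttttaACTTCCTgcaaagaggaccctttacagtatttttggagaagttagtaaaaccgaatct
Vav1: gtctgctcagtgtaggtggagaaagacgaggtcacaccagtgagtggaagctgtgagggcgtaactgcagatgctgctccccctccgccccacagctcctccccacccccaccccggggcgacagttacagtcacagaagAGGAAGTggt
Was: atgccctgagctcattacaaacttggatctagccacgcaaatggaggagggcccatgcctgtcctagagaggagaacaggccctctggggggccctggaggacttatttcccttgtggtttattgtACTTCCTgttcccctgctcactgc
The match in Lyz2 ran from base -100 to -94 and that in Pirb from -119 to -113, counted from the start site. In Vav1 it ran from -10 to -4, and in Was from -24 to -18. The window of Ptprc held a match on each strand, at -113 to -107 and at -58 to -52.

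MDSC cultures carried more signal than ESC for most of the myeloid list. Against ESC, 32 of the 46 tested members were higher in MDSC (adjusted p under 0.05, limma with Benjamini-Hochberg adjustment over all features tested), where 28.3% of all features tested were called higher. None of the 46 was lower, where 31.4% of all features were called lower, and 34 of the 46 had an unadjusted p under 0.05, beside 65% of all features. The median difference over the 46 was 3.13 on the log2 scale, beside -0.03 over all features, and 2.80 with each bounded difference set to its bound. For MDSC, the WT mean and the Mstn-null mean were weighted equally. On 32 of the 46, every MDSC array lay above every ESC array, beside 33% of all features. A member that was tested only because MDSC arrays were above background was favoured to lie higher in MDSC. Among the 24 tested members that were above background on both ESC arrays, 11 were higher and 0 lower, beside 25.5% and 34% of the features of that kind, and their median difference was 1.94. Spi1, Itgax, Cd86 and Cybb were above background on the Mstn-null arrays alone, so their differences of MDSC from ESC rest on those arrays. The number of calls rests on both ESC arrays: 16 members were called higher without ESC 1 and 17 without ESC 2, beside 22.8% and 22.3% of all features. The median difference was 3.05 and 3.09 without these arrays, but 1.84 with another background correction (normexp). The calls of 12 members held under every alternative in which they were tested, namely Cd14, Cd53, Csf1r, Lilrb4a, Lyz2, Msr1, Ncf4, Pirb, Plek, Spi1, Trem2 and Tyrobp. Of these, only Cd14, Csf1r and Trem2 were above background on both ESC arrays. The others were tested only because MDSC arrays were above background, which favoured their calls.

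**Figure D1:**
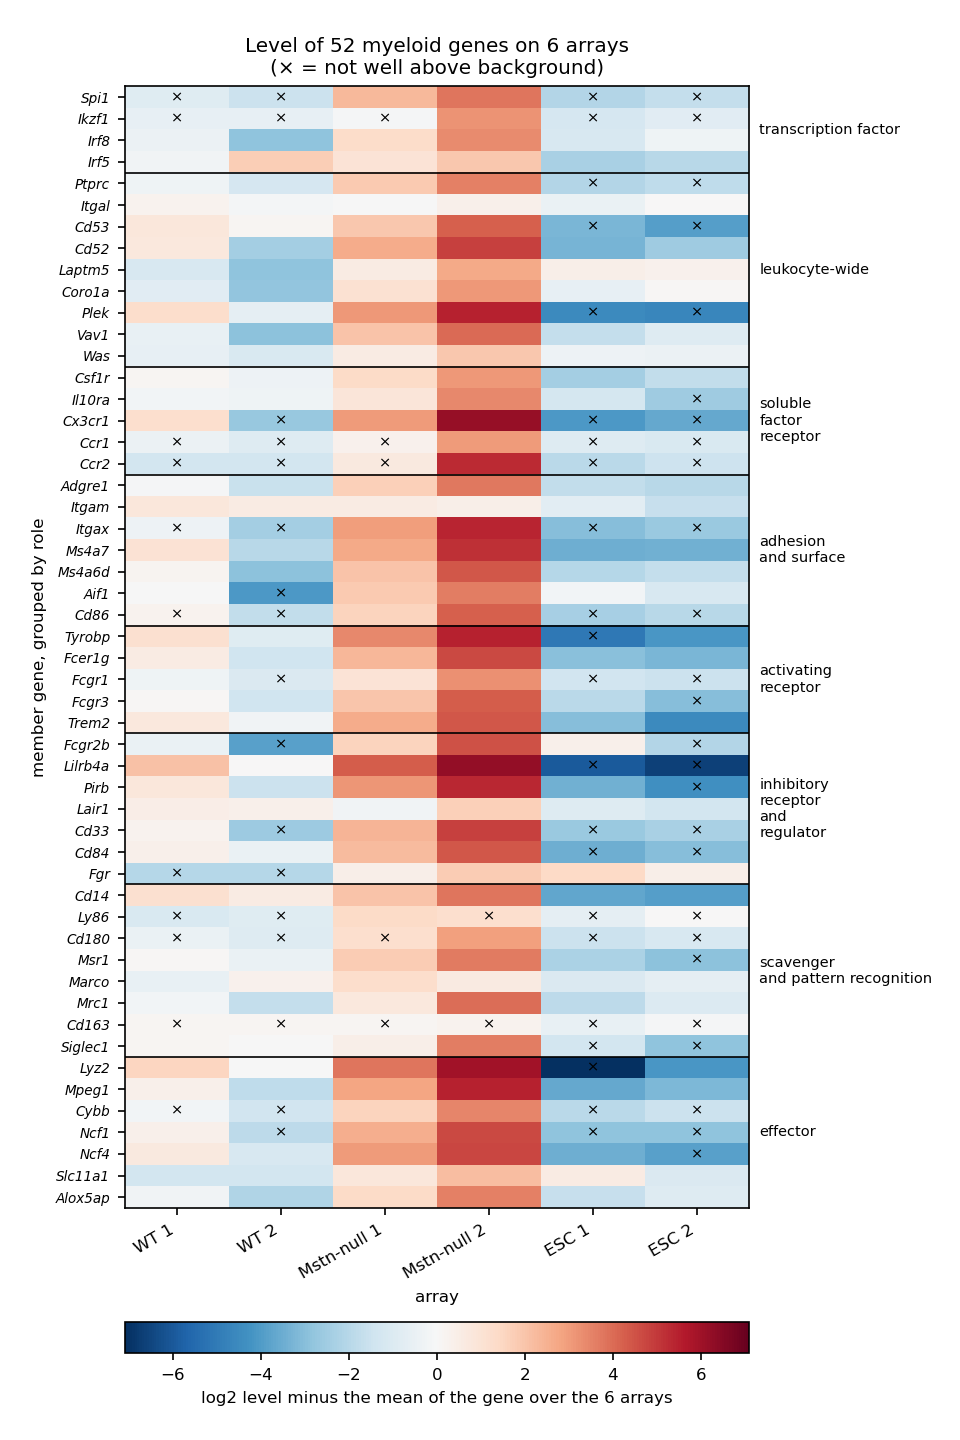
Level of each of the 52 members with a probe (vertical, grouped by role) on each of the 6 arrays (horizontal), as log2 level minus the mean of that gene over the 6 arrays. A cross marks a gene not well above background on that array. Mstn-null 2 is the reddest column and the crosses are most frequent on the ESC arrays, where 30 members (ESC 1) and 26 members (ESC 2) were well above background.

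The inhibitory receptor Lilrb4a, an immunoglobulin-like receptor of myeloid cells, gave the largest difference of the list. It read 1.97 and -0.09 on the WT arrays, 4.18 and 6.13 on the Mstn-null arrays, and -6.07 and -6.74 on the ESC arrays, where it was not well above background. The MDSC cultures were therefore at least 282-fold higher (log2 difference of 9.46 ± 0.81 SE over 4 and 2 arrays, with an adjusted p of 0.00096 by limma). This fold is a bound, taken against the lowest signal counted as well above background on each ESC array or the probe's own signal if higher.

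Plek, a protein kinase C substrate of platelets and leukocytes, followed the same layout, at -0.05 and -1.98 on WT, 1.74 and 4.13 on Mstn-null, and -5.85 and -5.93 on ESC, at least 66.3-fold higher in MDSC. Cd53, a tetraspanin found across leukocytes, read -2.03 and -2.70 on WT, -0.93 and 1.40 on Mstn-null, and -6.06 and -6.73 on ESC, at least 16.3-fold higher. All 4 MDSC arrays were above background for both genes and neither ESC array was. Cd84, a receptor of the SLAM family, read -3.33 and -4.15 on WT, -1.48 and 0.70 on Mstn-null, and -7.18 and -6.74 on ESC, at least 8.13-fold higher by this probe. Ptprc, the CD45 phosphatase shared by nucleated blood cells, read -3.56 and -4.45 on WT, -1.39 and 0.32 on Mstn-null, and -5.34 and -5.03 on ESC, at least 7.07-fold higher. Its adjusted p was 0.00882, and 0.0557 without ESC 1 (limma). Siglec1, a sialic acid binding receptor of macrophages, was the only other member on all 4 MDSC arrays and neither ESC array.

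Among members well above background on all 6 arrays, 5 are named for the largest differences. Cd14, the co-receptor for bacterial lipopolysaccharide, read 1.69 and 1.11 on WT, 2.54 and 4.34 on Mstn-null, and -3.16 and -3.36 on ESC, a difference of 5.68 ± 0.53 SE or 51.3-fold (limma adjusted p = 0.00119). Trem2, a lipid-sensing receptor that pairs with Tyrobp, read 0.74 and -0.29 on WT, 2.64 and 4.40 on Mstn-null, and -3.06 and -4.51 on ESC, a 50.4-fold difference. In both genes the lowest MDSC array exceeded the highest ESC array by more than the gap between the ESC arrays. Ms4a7, a four-pass membrane protein of macrophages, read 0.48 and -2.47 on WT, 2.17 and 4.65 on Mstn-null, and -4.01 and -3.94 on ESC, a difference of 5.18 ± 1.06 SE. Mpeg1, the pore-forming protein perforin-2, read -0.23 and -2.36 on WT, 2.24 and 4.87 on Mstn-null, and -4.18 and -3.74 on ESC, a difference of 5.09 ± 0.94 SE. Fcer1g, the signalling gamma chain of Fc receptors, read 1.68 and -0.29 on WT, 3.44 and 5.79 on Mstn-null, and -1.86 and -2.13 on ESC, a difference of 4.65 ± 0.85 SE. The MDSC and ESC arrays did not overlap in any of these genes, but leaving out 1 ESC array took the adjusted p above 0.05 for Ms4a7 (0.063 without ESC 1), Mpeg1 (0.0537 without ESC 1) and Fcer1g (0.0523 without ESC 2), by limma.

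Among the transcription factors, Spi1 and Irf5 passed the test, Irf8 did not, and Ikzf1 was not tested. Spi1 was well above background on the Mstn-null arrays alone, at -3.04 and -1.56, and read -6.22 and -6.88 on WT and -7.43 and -7.04 on ESC, neither well above background. Its difference of MDSC from ESC was 2.81 ± 0.47 SE, and the bound was 1.58-fold. That bound takes the WT signals as read, although they were at background, so it is not strict. Irf5, an interferon regulatory factor of inflammatory macrophages, read -1.56 and 0.44 on WT, -0.32 and 0.62 on Mstn-null, and -3.61 and -3.26 on ESC, 9.37-fold higher in MDSC. Irf8, which guides monocyte and dendritic cell development, read -2.06 and -4.49 on WT, -0.35 and 1.70 on Mstn-null, and -2.81 and -1.95 on ESC, so WT and ESC overlapped. Ikzf1, the lymphoid and myeloid factor Ikaros, was well above background on Mstn-null 2 alone.

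All 3 tested receptors for soluble factors passed. Csf1r read 3.26 and 2.76 on WT, 4.46 and 6.17 on Mstn-null, and 0.68 and 1.36 on ESC, 8.83-fold higher in MDSC (limma adjusted p = 0.00654). Cx3cr1, the fractalkine receptor, read -1.92 on WT 1 and -5.80 on WT 2, the latter not above background, then -0.11 and 3.03 on Mstn-null. Cx3cr1 was not above background on ESC, and was 14.8-fold higher in MDSC by the bound. Its WT 2 signal enters as read, so this bound is not strict. Leaving out ESC 1 took its adjusted p to 0.0929 and leaving out ESC 2 to 0.0814 (limma). Il10ra, the receptor subunit for interleukin-10, was 7.12-fold higher, with ESC 2 not above background. The call of Il10ra was lost in 5 of 14 alternatives. Ccr1 and Ccr2, receptors for monocyte chemokines, were above background on Mstn-null 2 alone, where Ccr2 read -0.28.

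The adaptors and activating receptors passed in all 5 tested cases. Tyrobp, the adaptor DAP12, read 0.84 and -1.15 on WT, 3.09 and 5.16 on Mstn-null, and -5.36 and -4.43 on ESC, a difference of 6.88 ± 0.84 SE. For Tyrobp, ESC 1 was not above background. Fcgr3, an Fc receptor for IgG, was 12.7-fold higher in MDSC, with ESC 2 not above background. Fcgr1, another Fc receptor for IgG, was 3.92-fold higher by the bound. WT 2 was not above background for Fcgr1 and enters as read, so this bound is not strict. The call of Fcgr1 was lost in 6 of 14 alternatives. Among the 7 inhibitory receptors and regulators, Lilrb4a, Pirb, Cd33 and Cd84 passed. Pirb, the paired immunoglobulin-like receptor, read -0.45 and -2.81 on WT, 1.87 and 4.10 on Mstn-null, and -4.65 and -5.63 on ESC, 56.5-fold higher in MDSC. For Pirb, ESC 2 was not above background. Fcgr2b, the inhibitory Fc receptor, read -3.23 and -6.63 on WT and -2.41 and -4.85 on ESC, so these groups overlapped, and Lair1, a collagen receptor, had an adjusted p of 0.0504 (limma). Lair1 passed under 6 of 15 alternatives, quantile normalization and median centring among them, at an adjusted p of 0.00552 to 0.0458 (limma). Fgr, a Src-family kinase of myeloid cells, was the member with the lowest value, -1.36 ± 0.49 SE, which did not pass.

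The adhesion and surface genes passed in 5 of 7 cases. Adgre1, a surface receptor widely used to mark mouse macrophages, read -2.36 and -3.85 on WT, -0.58 and 1.51 on Mstn-null, and -4.00 and -4.23 on ESC, 6.96-fold higher in MDSC (limma adjusted p = 0.023, and 0.0904 without ESC 1 or 0.109 without ESC 2). Itgax, the integrin chain CD11c, was above background on the Mstn-null arrays alone, at -1.32 and 1.12. Itgam, Ms4a7 and Cd86 were the other members of this group that passed, and Ms4a6d and Aif1 were not called. Aif1, a calcium-binding protein of macrophages, read -2.91 and -6.93 on WT, the latter not above background, and -3.04 and -4.00 on ESC.

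Of the scavenger and pattern recognition receptors, Cd14, Msr1, Marco and Siglec1 passed and Mrc1 did not, out of 5 tested. The call of Siglec1 was lost in 7 of 14 alternatives and that of Marco in 3 of 15. Msr1, the scavenger receptor A, read -2.39 and -2.94 on WT, -0.67 and 1.20 on Mstn-null, and -4.72 and -5.42 on ESC, 14.6-fold higher in MDSC. For Msr1, ESC 2 was not above background. Mrc1, the mannose receptor, read -0.73 and -2.27 on WT, 0.22 and 3.41 on Mstn-null, and -2.41 and -1.53 on ESC, so WT 2 lay within the ESC arrays. Cd163, the haemoglobin scavenger receptor, was well above background on no array, and Cd180 and Ly86, a lipopolysaccharide-related receptor and a partner protein of it, were each above background on 1 Mstn-null array only.

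Effector genes passed in 5 of 7 cases. Lyz2, the lysozyme of macrophages and granulocytes, read 1.15 and -0.40 on WT, 3.42 and 5.59 on Mstn-null, and -7.46 and -4.50 on ESC, a difference of 8.42 ± 1.10 SE (limma adjusted p = 0.00291). The ESC arrays differed by more for Lyz2 than for any other tested member, and only ESC 2 was above background. Ncf4 and Ncf1, subunits of the phagocyte NADPH oxidase, were 44.7-fold higher in MDSC and 9.69-fold higher by the bound. ESC 2 was not above background for Ncf4. WT 2 was not above background for Ncf1 and enters as read, so the bound of Ncf1 is not strict. Cybb, the membrane subunit of the NADPH oxidase, was 1.31-fold higher by the bound over the 4 MDSC arrays. Cybb was not above background on WT, at -5.77 and -6.94, and these signals enter as read, so this bound is not strict. WT against ESC did not pass for Cybb (limma adjusted p = 0.308). Slc11a1, a metal transporter of the phagosome, and Alox5ap, an activator of leukotriene synthesis, did not pass. Of the 9 leukocyte-wide genes, Ptprc, Cd53, Cd52 and Plek passed, and Itgal, Laptm5, Coro1a, Vav1 and Was did not. Coro1a, an actin-binding protein of leukocytes, read 0.22 and -1.77 on WT, 2.11 and 4.08 on Mstn-null, and 0.43 and 1.11 on ESC, so WT lay below ESC and Mstn-null above.

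**Figure D2:**
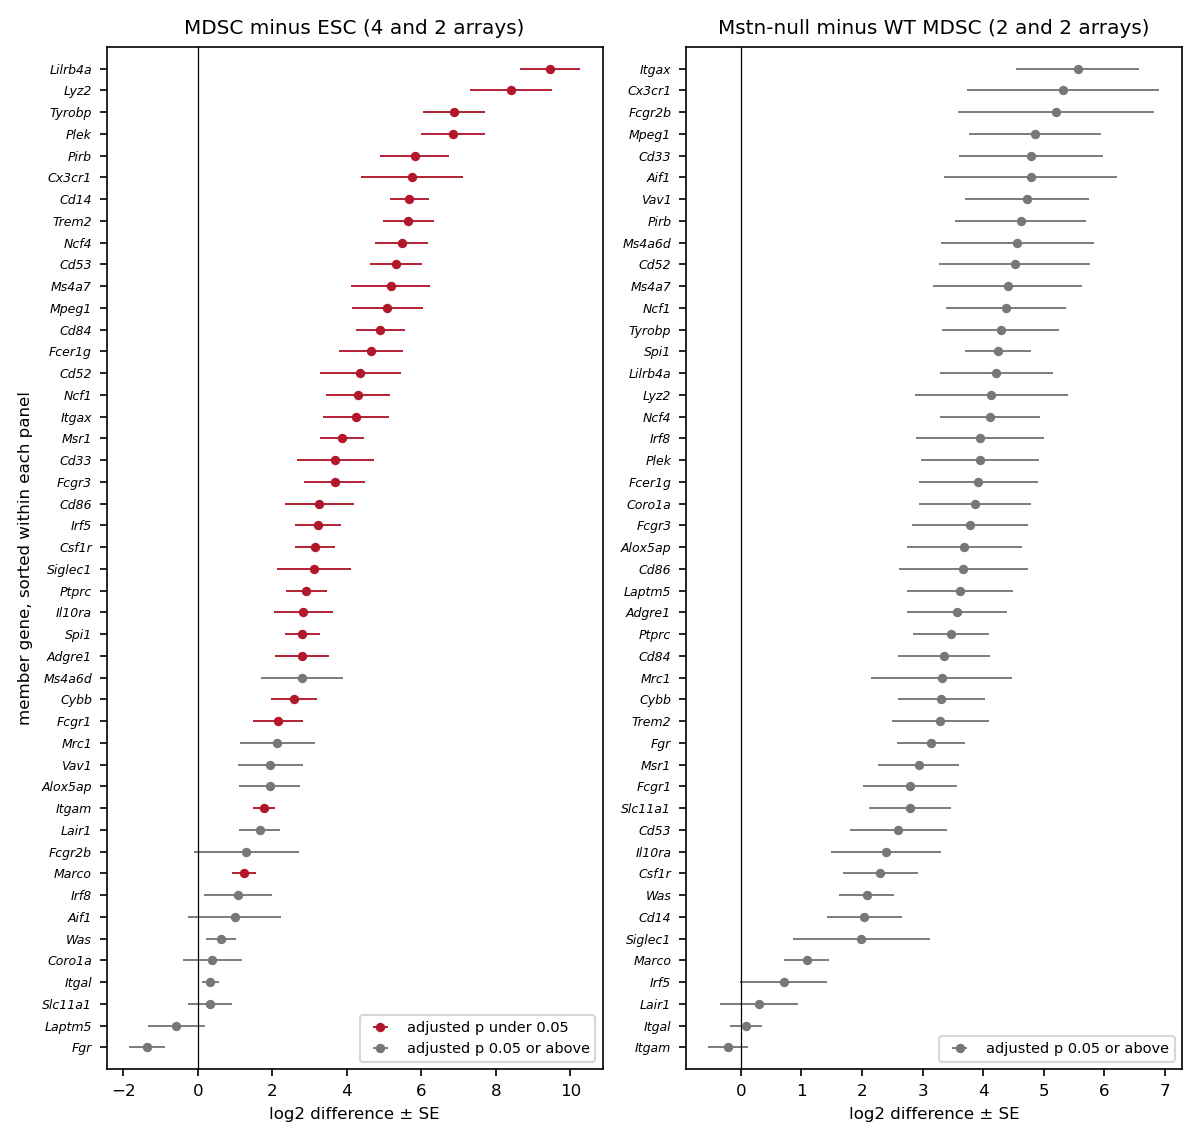
Log2 difference ± SE from limma for the 46 tested members, MDSC minus ESC on the left (4 and 2 arrays) and Mstn-null minus WT MDSC on the right (2 and 2 arrays), genes sorted within each panel. Red points have an adjusted p under 0.05, and there are 32 of them on the left and 0 on the right, where 45 of 46 values nevertheless lie above 0.

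The WT and the Mstn-null cultures were also set against ESC separately. In WT against ESC, 14 members were higher, where 27.1% of all features were called higher, and 1 was lower, where 25.9% were. So 15 were called in either direction, beside 53.1% of all features. Both WT arrays lay above both ESC arrays for 32 of the 46, beside 41.4% of all features. The median difference was 1.57, and 0.65 with normexp background correction, under which 8 members were called beside 54.8% of all features. The 14 were Irf5, Cd53, Plek, Csf1r, Itgam, Tyrobp, Trem2, Lilrb4a, Pirb, Cd84, Cd14, Msr1, Lyz2 and Ncf4. Fgr was the 1 lower gene: it read -2.62 and -3.64 on ESC and was not above background on WT, at least 3.26-fold higher in ESC (limma adjusted p = 0.0112). The call of Fgr was lost with another background correction, at an adjusted p of 0.125 (limma). Cd14 (25.3-fold higher in WT than ESC) and Lilrb4a (at least 65.3-fold) were the members called in WT under every alternative in which they were tested. Without WT 1, whose levels were the higher of the WT pair for most members, 6 members were called in place of 15, beside 37.3% of all features. Without ESC 1 there were 7, beside 43.4%, and without ESC 2 there were 6, beside 42.5%.

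In Mstn-null against ESC, 37 members were higher, where 23.3% of all features were called higher, and 0 lower, where 30.8% were. These arrays shared a slide with ESC. Both Mstn-null arrays lay above both ESC arrays for 44 of the 46, all but Itgal and Fgr, beside 37% of all features. The unadjusted p was under 0.05 for 39 of the 46, beside 60.9% of all features. The median difference was 4.79, or 4.44 with bounded differences at their bound. Of the 46, 9 were tested only because both Mstn-null arrays were above background, which favours a positive difference for them. Without them, 29 of 37 members were higher, beside 22.8% of the features left, and 0 lower, beside 31.2%. The arrays did not overlap for 35 of the 37, beside 36.4%, and the median was 4.58. Lilrb4a was at least 1215-fold higher than in ESC, Plek at least 260-fold and Cx3cr1 at least 93.9-fold. The members called here and in neither of the other comparisons with ESC were Vav1 (19.9-fold), Was (3.15-fold), Ms4a6d (33.8-fold), Mrc1 (13.8-fold) and Alox5ap (13.7-fold). The call of Mrc1 was lost in 7 of 15 alternatives. The calls of Vav1, Was, Ms4a6d and Alox5ap were lost in 3 of 15 each, namely without Mstn-null 2, without ESC 1 and without ESC 2. The 3 comparisons with ESC share the ESC arrays, so their counts are not independent. A set of 22 of the 37 calls held under every alternative in which they were tested, none of these 5 among them. Spi1, Itgax, Cybb and Ncf1 are in that set and were tested only because both Mstn-null arrays were above background. Without Mstn-null 2, 28 members were called higher, beside 13.7% of all features, without ESC 1 there were 25, beside 19.4%, and without ESC 2 there were 27, beside 19.6%.

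Between the genotypes, no member passed the test, although nearly all lay higher on the Mstn-null arrays. Of the 46, 0 were called, where 0% of all features tested were called in either direction by limma. The unadjusted p was under 0.05 for 41 of the 46, beside 14.7% of all features, and 45 of the 46 values were above 0, beside 36.7% of all features. Both Mstn-null arrays lay above both WT arrays for 42 of the 46, beside 16.6% of all features, and Irf5, Itgal, Itgam and Lair1 were the exceptions. Of the 46, 9 were tested only because both Mstn-null arrays were above background (Spi1, Itgax, Cd86, Cybb, Cx3cr1, Fcgr1, Ncf1, Cd33 and Fcgr2b), which favours a positive difference for them. Without them, 32 of 37 members had an unadjusted p under 0.05, beside 14.3% of the features left, and 36 of 37 values were above 0, beside 36%. The arrays did not overlap for 33 of the 37, beside 15.9%, and the median was 3.57. The median of all 46 differences was 3.68, beside -0.12 over all features. It was 2.60 without Mstn-null 2 and 4.88 without Mstn-null 1, 4.55 without WT 1 and 2.85 without WT 2. Groups of 2 arrays on separate slides make this comparison weak, and a p above the threshold does not show that the genotypes were alike.

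The smallest p of the list belonged to Spi1, whose levels are given above. The difference was 4.25 ± 0.55 SE, at least 5.77-fold, with an adjusted p of 0.0742 by limma. Fgr read -3.61 and -2.23 on Mstn-null and -6.06 and -6.05 on WT, where it was not above background, at least 3.77-fold (limma adjusted p = 0.112). Ptprc differed by 3.47 ± 0.63 SE (limma adjusted p = 0.113). Itgax differed by 5.56 ± 1.02 SE, at least 23.6-fold, with -4.64 and -6.68 on the WT arrays, neither above background (limma adjusted p = 0.114). Ncf4 read 1.93 and 3.67 on Mstn-null and -0.40 and -2.23 on WT, a difference of 4.12 ± 0.82 SE (limma adjusted p = 0.126). In each of these genes the lower Mstn-null array exceeded the higher WT array, which their choice by smallest p favoured. Spi1 and Itgax were also tested only because both Mstn-null arrays were above background. The number that did not pass includes all of these genes.

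By role, the median genotype difference ran from 2.04 over the 5 tested scavenger and pattern recognition receptors to 4.41 over the 7 adhesion and surface genes. Effector genes (4.12), inhibitory receptors and regulators (4.22), activating receptors (3.78) and leukocyte-wide genes (3.62) lay between. Itgam, the integrin chain CD11b, was the only member below 0, at -0.21 ± 0.33 SE. It read 5.50 and 5.27 on WT, 5.27 and 5.09 on Mstn-null, and 3.95 and 3.06 on ESC.

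The other probes of Itgam did not follow this flat reading. A second probe read -2.98 and -3.14 on WT and -2.24 and -0.29 on Mstn-null, a genotype difference of 1.80, and the last one gave 0.77. The mean over the probes of Itgam gave 0.79, above 0. Of the 14 members with 2 or 3 probes, the sign of the genotype difference depended on the probe for Itgam and Ikzf1, and the sign of MDSC minus ESC for Cd84, Itgal and Itgam. The second probe of Cd84 gave -1.57 for MDSC minus ESC, against 4.90 for the brighter one. With the mean over probes, Cd84 and Itgam no longer passed in MDSC against ESC, at an adjusted p of 0.0721 and 0.0883 (limma). The second probe of Itgal gave a genotype difference of 1.23, against 0.09. The 3 probes of Csf1r gave genotype differences of 2.30, 2.81 and 0.35. The second probe of Lair1 gave a genotype difference of 2.51, against 0.30, and was above background on Mstn-null 2 alone.

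The members were ordered in the same way across the 4 MDSC cultures. In 39 of the 46, the level was highest on Mstn-null 2, then Mstn-null 1, WT 1 and WT 2, an order found in 6.21% of all features. The exceptions were Irf5, Itgal, Itgam, Lair1, Fgr, Marco and Slc11a1. Of the 46, 9 were tested only because both Mstn-null arrays were above background, which favours Mstn-null over WT for them. All 9 are counted in the 39, and in the 44 and the 40 given next. Mstn-null 2 was the highest MDSC array for 44 of the 46 (19.3% of all features), all but Itgam and Marco, and WT 2 the lowest for 40 of the 46 (22.8%). The mean level over the 52 members was 1.52 on Mstn-null 2, -0.48 on Mstn-null 1, -2.11 on WT 1, -3.40 on WT 2, -4.25 on ESC 1 and -4.27 on ESC 2. The number well above background ran in the same order, at 50, 47, 41, 35, 30 and 26 of 52. Over all non-control spots that share was 53.3%, 55.0%, 56.2%, 57.0%, 64.6% and 57.2% on the same arrays. The orders were counted over tested members and the 4 MDSC arrays. The mean levels and the numbers above background are over the 52 members with a probe and all 6 arrays. No test is attached to these values.

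Cultures of the same label lay about as far apart for these genes as Mstn-null 1 and WT 1, the nearest cultures of different labels. Mstn-null 2 exceeded Mstn-null 1 by a median of 2.10 over the 46 (quartiles 1.76 and 2.38), and WT 1 exceeded WT 2 by a median of 1.54 (quartiles 0.56 and 2.11). Mstn-null 1 exceeded WT 1 by a median of 1.80. Over all features these medians were -0.05, -0.07 and -0.05. A gap of at least 1 between the Mstn-null arrays occurred in 42 of the 46 and in 3.74% of all features, and one of at least 1 between the WT arrays in 28 of the 46 and in 5.75%. The ESC arrays differed by a median of -0.05 over the members. Siglec1, Mrc1 and Cx3cr1 differed by 3.20, 3.19 and 3.14 between the Mstn-null arrays, while Marco differed by -0.60. WT 1 exceeded WT 2 most for Aif1, by 4.02, and Irf5 went the other way, at -2.00. Aif1 was not above background on WT 2, so its gap includes a signal at background. Isolations of the same label thus differed for these genes by more than most features on the array did, and the number of isolations does not separate that spread from genotype.

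**Figure D3:**
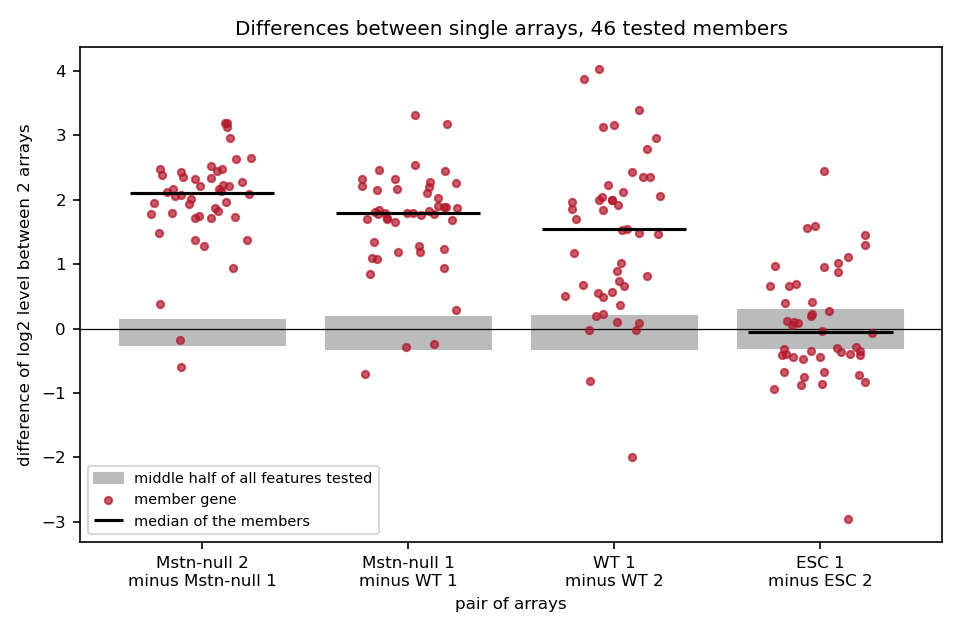
Difference of log2 level between pairs of single arrays for the 46 tested members (red points), with the median of the members (black line) and the quartiles of all 25057 features tested (grey box). Members centre at 2.10, 1.80 and 1.54 for the pairs of MDSC arrays and at -0.05 for the pair of ESC arrays.

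A list of 48 other myeloid genes, chosen beside the members, was counted in the same fit, and 47 of them had a probe and 44 were tested. Like the members, these genes were chosen with earlier results of these data known, so their counts are no independent check of the members. In MDSC against ESC, 28 were higher, beside 28.3% of all features tested, and 4 lower, beside 31.4%. Cebpe, Inpp5d and Cd300a were among those 4. In WT against ESC 17 were higher and 5 lower, beside 27.1% and 25.9% of all features. In Mstn-null against ESC 34 were higher and 2 lower, beside 23.3% and 30.8%. Between the genotypes 0 passed, where 0% of all features did. The unadjusted p (limma) was under 0.05 for 24 of 44, beside 14.7%, and 43 of 44 values were above 0, beside 36.7%. Btk and Hcls1, kinase and adaptor of leukocyte signalling, resembled the members. Btk read -3.35 and -4.73 on WT, -0.76 and 0.72 on Mstn-null and was not above background on ESC, and Hcls1 read -0.08 and -1.78 on WT, 1.99 and 3.78 on Mstn-null, and -3.90 and -4.35 on ESC. The ligand of Csf1r, Csf1, was instead even over the MDSC arrays, at 5.87 to 6.65, and read 1.54 and 2.22 on ESC. Maf, a transcription factor of macrophages that other cells also use, lay between 0.72 and 1.81 on the MDSC arrays and read -2.86 and -4.24 on ESC, and Cebpb lay between 5.66 and 5.89 on MDSC.

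Markers of other blood cells, also chosen with earlier results of these data known, were counted in the same way. Of 45 listed, 43 had a probe and 23 were tested. In MDSC against ESC 7 were higher and 6 lower, beside 28.3% and 31.4% of all features. Between the genotypes 0 passed, where 0% of all features did, and 11 of 23 values were above 0, beside 36.7%. Of the 43, 16 were well above background on no array, among them the T-cell markers Cd3d and Cd3g, the B-cell markers Ms4a1 and Pax5, the NK-cell marker Ncr1, the mast-cell marker Cpa3 and the dendritic-cell marker Xcr1. Another 14 were above background on all 6 arrays, ESC included. These were Cd3e, Lck and Cd5 of the T-cell list, Prf1 of the NK-cell list, Elane and Camp of the neutrophil list, Tpsb2 of the mast-cell list, Zbtb46, Siglech and Batf3 of the dendritic-cell list, Itga2b and Gp1bb of the megakaryocyte list and Hba-a1 and Epor of the erythroid list. Cd3e, a chain of the same T-cell receptor complex as Cd3d and Cd3g, read 1.34 to 1.93 over the 6 arrays, and Siglech 6.15 to 7.69. The mean levels of these lists include genes at background. The T-cell list lay between -3.88 and -3.83 on the MDSC arrays, with 3 of 6 genes above background on each, and the B-cell list between -5.87 and -5.64, with 0 or 1 of 6. The dendritic-cell list lay between -3.14 and -2.85, with 3 or 4 of 6, and the NK-cell list between -4.59 and -3.86, with 1 to 3 of 5. The mast-cell list lay between -5.05 and -4.34, with 2 of 5, and the erythroid list between -5.13 and -4.84, with 2 of 4. The neutrophil list was highest on Mstn-null 1, at -1.61, and lay between -3.56 and -3.19 on the other MDSC arrays, and the megakaryocyte list lay between -3.29 on WT 2 and -1.94 on Mstn-null 2. Their part in the members' differences was not tested.

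Markers of other cells in the cultures did move between arrays. Fibroblast genes had a mean level of 5.97 and 4.74 on WT, 5.91 and 6.35 on Mstn-null, and 2.76 and -0.74 on ESC. Dcn, a matrix proteoglycan, read 2.96 on ESC 1 and -2.05 on ESC 2, and Lum 2.14 and -5.96, while the members showed a median difference of -0.05 between these arrays. Myogenic markers had a mean level of -0.07 on WT 1, -2.08 on WT 2, -2.57 on Mstn-null 1 and -3.18 on Mstn-null 2, and Myog, a factor of myoblast differentiation, read 2.58, 0.58, -0.16 and -1.75 on the same arrays. The part of these shifts in the members' differences was not tested.

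**Figure D4:**
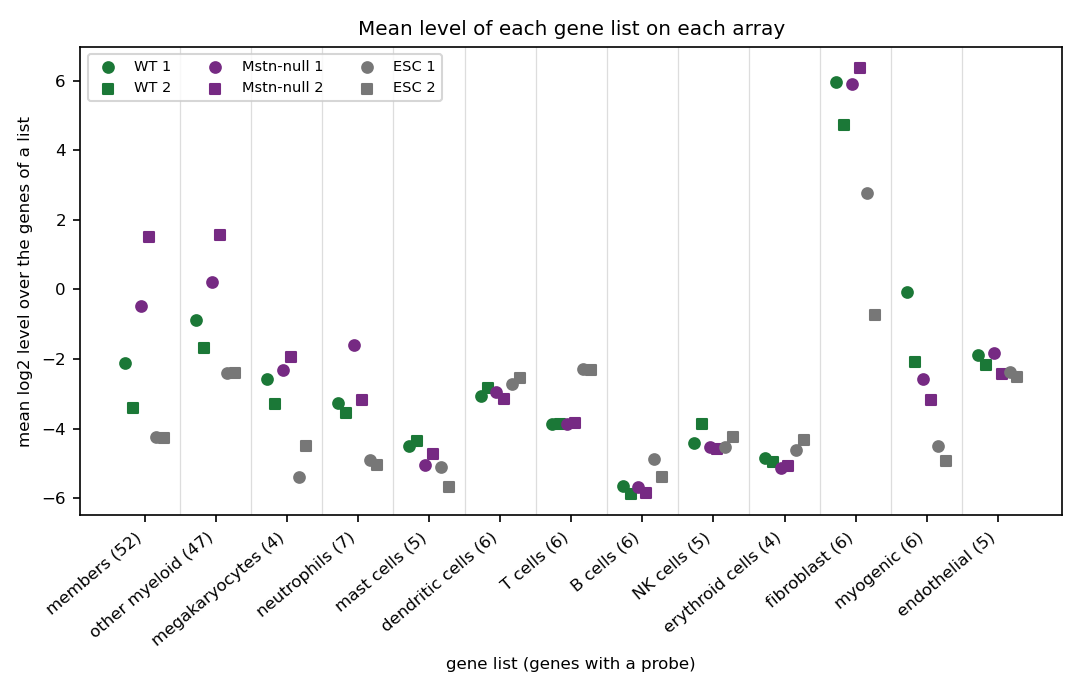
Mean log2 level over the genes with a probe of each list (number in brackets) on each array, WT in green, Mstn-null in purple and ESC in grey, replicate 1 as circles and replicate 2 as squares. The members spread from -4.27 to 1.52 over the arrays, and the T-cell list, with 3 of its 6 genes above background on each MDSC array, lay between -3.88 and -3.83 on those arrays.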

How the data were processed

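Cy3-labelled RNA of each culture was read on a 1-colour Agilent mouse array, per the labels' protocols. The authors deposited the scanner output, spot intensities from Agilent Feature Extraction (the file headers name version 10.7.1.1, the submitters' processing notes 9.1). Per the file headers, background had been corrected in the processed intensity, and no scaling between arrays had been done.

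Levels are log2 of the processed signal minus the 75th percentile of the array over non-control spots (from 550 to 647 in intensity). Spots with an outlier flag (100 to 122 an array) were dropped, spots of a probe were averaged, and 23 probes without a value on some array were dropped. Of 55681 probes, 26413 matched a symbol by accession in a RefSeq table (GRCm38.p6) and 29268 kept the name of the file. A gene is its probe of highest mean over the 6 arrays. The 3 group means were fitted in R 4.3.3 with limma 3.58.1 (two-sided moderated test from lmFit and eBayes, 3 residual and 2.02 prior degrees of freedom), with p-values adjusted by Benjamini-Hochberg over the 25057 genes and features tested and a threshold of 0.05. The steps were tested on simulated data. Where a gene was above background on no array of a side, the fold is a lower bound, from means of normalized log2 values. Arrays of the other side enter as read, so the bound is not strict where some of them were at background. Where only some arrays of the lower side were at background, the fold is not bounded and includes those signals.

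Isolation numbers in the labels name no shared animal, day or batch, so the isolations were not treated as pairs. Whether isolations came from separate animals is not stated, so p-values measure only the spread between these arrays, and the ESC arrays are passages of 1 line.

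Values per array were given for the 5 members of largest difference above background on all arrays and the 5 of largest bound among those above background on all 4 MDSC and neither ESC array, both in MDSC versus ESC, for the 5 of smallest p between the genotypes, and for 1 to 3 members of each role. Other members were named freely from the list. The members, gene lists and motifs were chosen with earlier results of these data known. Alternatives were normexp background correction (offset 50, on median signals in place of the planned mean signals), median centring, quantile normalization, no filter on dim probes, a filter to genes above background everywhere, the mean over probes, outlier flags kept, a variance trend with robust fitting, only the groups compared, 1 slide, replicate blocks and leaving out each array. Protein sequences were not analysed here. Some genes of the other lists are counted but not reported here by name.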

Additional observations from a re-analysis of the deposited data

Results flagged for a closer look

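In 4 members, both Mstn-null arrays lay above both ESC arrays and both WT arrays lay below them. These members were singled out by these values, because the cultures of the genotypes lay on opposite sides of ESC. The share of all features with this layout was not counted, so whether 4 is many cannot be said. The test of the difference between the genotypes did not pass for any of these members (limma with Benjamini-Hochberg adjustment). Laptm5, a lysosomal membrane protein of blood cells, read 0.30 and 2.43 on Mstn-null, -1.40 and -3.10 on WT, and 0.18 and 0.07 on ESC, a genotype difference of 3.62 (adjusted p = 0.169 by limma). Coro1a differed by 3.87 (adjusted p = 0.165 by limma). Was, the regulator of actin in blood cells that is lost in Wiskott-Aldrich syndrome, read -0.47 and 0.81 on Mstn-null, -1.65 and -2.15 on WT, and -1.46 and -1.51 on ESC, a difference of 2.07 (adjusted p = 0.148 by limma). Slc11a1 read -0.72 and 0.65 on Mstn-null, -2.84 and -2.82 on WT, and -0.95 and -2.55 on ESC, a difference of 2.79 (adjusted p = 0.172 by limma).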

How the results depend on the processing

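With normexp background correction, the median difference of the members was 1.84 in MDSC versus ESC, 0.65 in WT versus ESC and 3.29 in Mstn-null versus ESC, and 8 members were called in WT versus ESC, beside 54.8% of all features. Keeping only genes well above background on all arrays left 22 members, of which 12, 5 and 17 were called in these comparisons, beside 61.7%, 55.3% and 56.3% of all features under that filter, with medians of 2.04 in MDSC and 0.86 in WT. The other myeloid genes then gave 20 calls against ESC for MDSC and 21 for Mstn-null, and other blood cell markers 8 and 9. Within the slide that held no WT array, MDSC versus ESC is the same as Mstn-null versus ESC, with the median of 4.79 given above. Leaving out each array in turn, members called ran from 16 to 35 in MDSC versus ESC, beside 47% to 55% of all features, and from 6 to 19 in WT versus ESC, beside 37.3% to 44.1%. In the same settings, other myeloid genes ran from 18 to 34 and from 11 to 23, and other blood cell markers in Mstn-null versus ESC from 8 to 12. A lone array left in a group was assumed to vary like the other groups. Itgam turned to 0.79 between the genotypes with the mean over probes.

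In Mstn-null versus WT, 0 members passed under every alternative run. Quantile normalization called 25 features there, none of them a member. Median centring took the members' median from 3.68 to 3.84. The replicate block gave 0 calls, as did the crossed replicate block, which was added after the data were seen because the deviations of same-numbered MDSC arrays correlated at -0.397 across the features tested. Neither block changed a call.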

Other observations

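Of the genes outside the list, the 3 chains of complement C1q, which macrophages make, and Pf4 are given here. They were chosen after their values were seen. C1qa read -0.13 on WT 1, -5.46 on WT 2, -0.45 on Mstn-null 1 and 3.56 on Mstn-null 2. C1qb read 0.36 on WT 1, -2.69 on WT 2, 0.80 on Mstn-null 1 and 4.03 on Mstn-null 2, and C1qc read 0.70, -4.38, 0.65 and 4.39 on the same arrays. Pf4, a chemokine of platelets that macrophages can also make, read 1.81, -1.06, 1.81 and 4.76. The other detected genes of the megakaryocyte list did not share this layout: Itga2b read -3.24, -2.84, -4.00 and -4.22, and Gp1bb -2.15, -2.50, -2.05 and -1.88 on these arrays. WT 1 and Mstn-null 1 were close for the C1q chains and Pf4, whereas Mstn-null 1 lay above WT 1 by a median of 1.80 over the members. The difference between these layouts was not tested.

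Some neutrophil genes peaked on another array than the members. S100a9, a calcium-binding protein abundant in neutrophils, read -1.31 on Mstn-null 1 and was well above background on no other array. Ngp, a granule protein, read -3.69 on Mstn-null 1 and was likewise above background there alone. S100a8 and Mpo were also highest on Mstn-null 1 among the MDSC arrays, at -0.54 and -3.94. The mean level of the 7 neutrophil genes with a probe was -1.61 on Mstn-null 1 and -3.19 on Mstn-null 2, the reverse of the order of the members. That mean includes S100a9 and Ngp, which were not above background on Mstn-null 2. Camp, another granule gene, did not share this pattern, at 1.99 on WT 1 and 0.48 on Mstn-null 1. Elane did not either, at 2.77 and 2.81 on WT, 2.46 on Mstn-null 1 and 2.55 on Mstn-null 2.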
